A study of Mus musculus with 4 samples.

Results

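The genes described here encode 10 enzymes of glycolysis, chosen by symbol: glucose phosphate isomerase (Gpi1), triosephosphate isomerase (Tpi1), glyceraldehyde phosphate dehydrogenase (Gapdh), phosphoglycerate kinase (Pgk1), the phosphoglycerate mutases Pgam1 and Pgam2, the enolases Eno1, Eno2 and Eno3, and the muscle-type pyruvate kinase (Pkm). All 10 were found among the 24347 gene rows of the series. RNA-seq was performed on mouse embryoid bodies (EBs) at day 3 of differentiation, with 2 wild-type (WT) samples and 2 samples in which the promoter of Gm11549 (also named Smim43), the gene encoding the NEMEP peptide, had been removed by CRISPR/Cas9 (promoter KO). EBs are aggregates of embryonic stem cells that begin to form the germ layers once the cytokine LIF is withdrawn. The methods describe promoter KO lines grown from single sorted cells, and the labels do not say whether the 2 promoter KO samples came from different lines, so the p-values measure the spread between these samples only.

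Glycolysis converts glucose to pyruvate and yields ATP and NADH. Gpi1 acts before the sugar is split, Tpi1 interconverts the triose phosphates formed by the split, and Gapdh, Pgk1, the mutases, the enolases and pyruvate kinase carry the triose through to pyruvate, with ATP made at the Pgk1 and pyruvate kinase steps. Pluripotent cells are known for high glycolytic activity. Eno2 is best known from neurons, and Eno3 and Pgam2 from striated muscle. Several of these genes, Gapdh above all, have left many processed pseudogenes in the mouse genome, and reads from such copies are hard to assign.

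Values were FPKM, fragment counts scaled to transcript length and library size, and can be compared between genes because they are given per length. From the lowest values of genes with 1 transcript, the libraries were estimated to hold 24800000 and 21900000 fragments in WT replicates 1 and 2, and 21700000 and 20200000 in promoter KO replicates 1 and 2. The estimate for promoter KO replicate 2 depended on the limits of the search, since a wider search gave 10100000 with assumed fragments of 200 bases, whereas with 300 bases both searches gave 21100000. The targeted gene was low throughout. Gm11549 measured 0.750 and 0.522 FPKM in WT, against 0 and 0.0659 FPKM in promoter KO, so both promoter KO samples were below both WT samples, as labelled. It did not reach the level needed for testing.

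The 10 members together summed to 9318 and 9680 FPKM for WT, compared with 7637 and 7599 FPKM for promoter KO. Their levels spanned a wide range. Pkm had the highest mean, ranking 35 among the 11941 genes tested, followed by Eno1 at rank 49 and Pgk1 at rank 81, whereas Pgam2 ranked 11065. All 10 members passed the filter, which asked for 1 FPKM or more in 2 or more samples. Genotypes were compared with limma on log2(FPKM + 1), and every fold change given as log2 is on that scale, which understates the change of low genes.

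**Figure D1:**
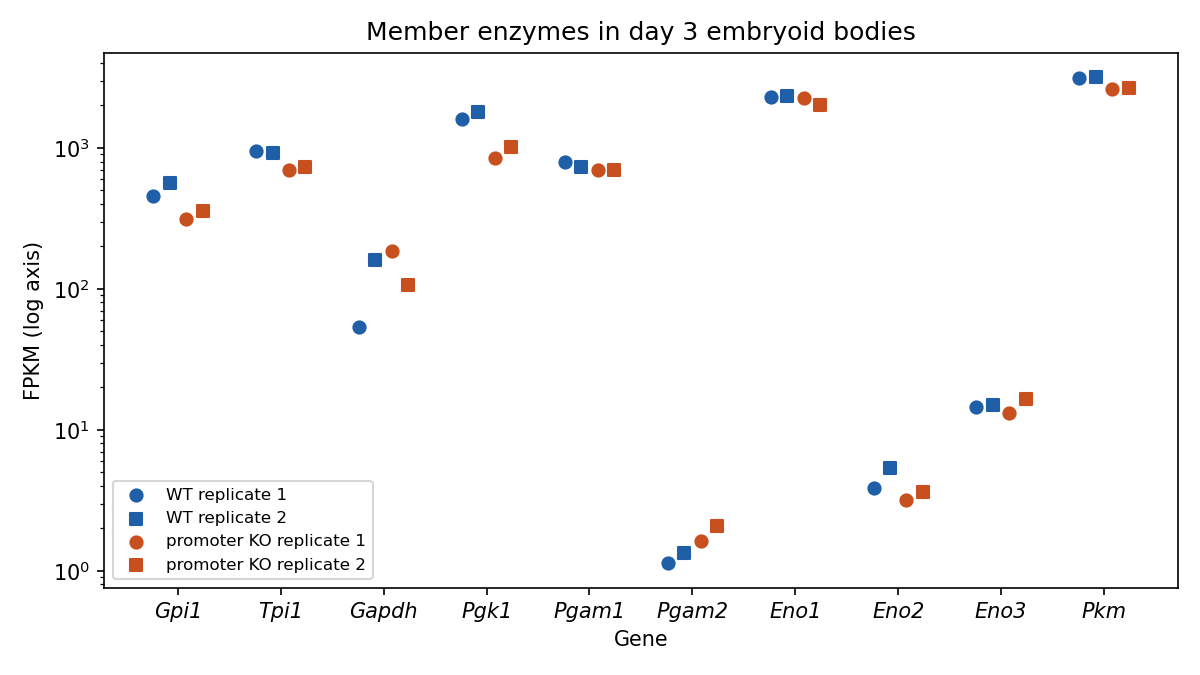
FPKM of the 10 member genes (log axis) in each WT (blue) and promoter KO (orange) sample, with circles for replicate 1 and squares for replicate 2. Pgk1 reached 1607 and 1789 FPKM in WT against 841 and 1010 FPKM in promoter KO, while the 4 Gapdh values were intermixed.

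At a Benjamini-Hochberg adjusted p under 0.05 in limma, Pgk1 and Tpi1 fell in promoter KO, which makes 2 of 10 members, against 1.89% of all 11941 tested genes called lower. No member was called higher, against 1.68% of tested genes. At an unadjusted p under 0.05 in limma, 4 members were lower and 0 were higher, as were 15.6% and 15% of tested genes. In 7 members both promoter KO samples were below both WT samples, an arrangement found in 32.4% of tested genes. In 1 member, Pgam2, both were above, as in 32.9% of tested genes. The median log2 fold change was -0.20 over the members and 0.00417 over all tested genes. Both calls depended on the processing. That of Tpi1 was lost in 9 alternative fits, and that of Pgk1 in 5, including the fits without WT replicate 1 (adjusted p = 0.0571), without WT replicate 2 (adjusted p = 0.183) and without promoter KO replicate 1 (adjusted p = 0.127), each in limma with the lone sample assumed to vary like the other genotype.

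Gpi1, which interconverts glucose and fructose phosphates, gave 453 and 564 FPKM for WT, compared with 315 and 358 FPKM for promoter KO. Both promoter KO samples were below both WT samples. The log2 fold change was -0.59 (SE 0.13), with an adjusted p of 0.0583 in limma, which missed the threshold.

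Tpi1, which keeps the triose phosphates in exchange, measured 949 and 925 FPKM in WT, against 694 and 737 FPKM in promoter KO. The groups did not overlap, and the mean of promoter KO was 23.7% lower. The log2 fold change was -0.39 (SE 0.073; adjusted p = 0.0494, limma). Without WT replicate 2 the adjusted p was 0.235, the highest of the alternatives. Tpi1, Gapdh and Eno2 lie on chromosome 6, where the median log2 fold change of the 531 tested genes was 0.13, and relative to that median Tpi1 was at -0.52.

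Gapdh, which makes NADH as it oxidises glyceraldehyde phosphate, reached 53.8 and 161 FPKM in WT against 187 and 106 FPKM in promoter KO. The genotypes overlapped, and WT replicate 1 was the lowest of the 4. The WT samples differed 2.98-fold, a larger difference than in 99.8% of the 6532 tested genes with a mean of at least 10 FPKM. The log2 fold change of 0.59 had a 95% confidence interval from -0.66 to 1.85 (adjusted p = 0.463, limma), and without WT replicate 1 the sign turned, to -0.19. In the GENCODE M21 annotation 93 other genes matched a Gapdh transcript at 95% identity or more over at least 200 bases, and 89 of them were pseudogenes. Of the 93, 5 had rows in the files. The highest of these was Gm12070, a processed pseudogene on chromosome 11 with 99.9% identity over 1002 bases, with 16.6 and 19.0 FPKM for WT against 42.5 and 17.9 FPKM for promoter KO. Summed with its copies, Gapdh gave 71.1 and 181 FPKM for WT, compared with 230 and 125 FPKM for promoter KO, again overlapping. The Gapdh values are uncertain for this reason, and a part played by copies in the spread was not tested.

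**Figure D2:**
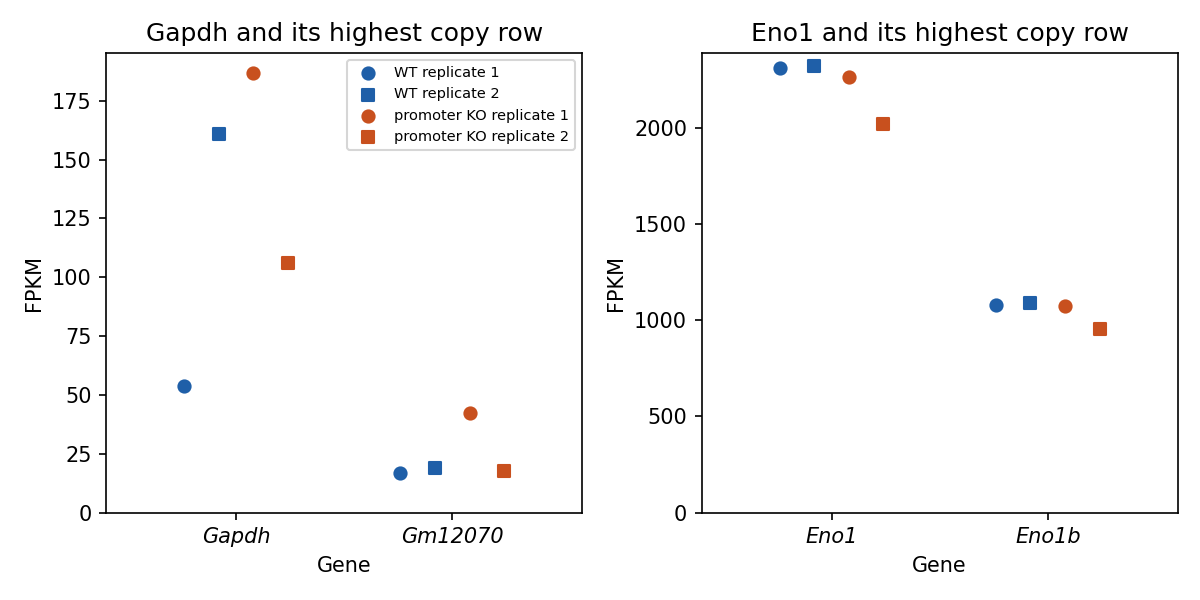
FPKM of Gapdh with its pseudogene Gm12070 (left) and of Eno1 with its near-identical gene Eno1b (right) in the 4 samples, WT in blue and promoter KO in orange. Gapdh ran from 53.8 to 187 FPKM with the genotypes overlapping, and Eno1b was close to 32% of the sum of Eno1 and Eno1b in each sample.

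Pgk1, the enzyme of the first ATP-yielding step, is located on chromosome X at chrX:106187100-106203699 (GRCm38, plus strand). It measured 1607 and 1789 FPKM in WT, against 841 and 1010 FPKM in promoter KO. The groups did not overlap, and the mean of promoter KO was 45.5% lower, the largest fall among the members that passed the test. The log2 fold change was -0.88 (SE 0.11, 95% confidence interval -1.15 to -0.61; adjusted p = 0.0340, limma). It had 4 pseudogene copies at 95% identity or more, none of them with a row in the files.

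The promoter of Pgk1 is shown because Pgk1 had the smallest adjusted p of the members. The 250 bases before its start site in RefSeq (GRCm38.p6), chrX:106186850-106187099 on the plus strand, overlapped no annotated gene. Capitals mark ACGTG or its variant GCGTG, which form the core of the hypoxia response element, as well as their reverse complements, CACGT for the former plus CACGC for the latter.
Pgk1: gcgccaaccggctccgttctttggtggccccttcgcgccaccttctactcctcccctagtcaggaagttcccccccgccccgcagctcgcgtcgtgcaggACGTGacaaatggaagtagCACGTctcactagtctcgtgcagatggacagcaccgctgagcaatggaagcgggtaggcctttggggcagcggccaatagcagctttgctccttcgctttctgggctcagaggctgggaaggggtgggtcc
The matches began 150 and 131 bases before the start site. At least 1 match was present in 8 of the 13 member windows, since Eno1 has 3 windows, of which 2 overlap, and Pkm has 2. The share over all 32851 windows of the same length in the table was 38.6%. The windows of Tpi1, Gpi1, Eno2 and Pgam2 held none of these letters. Members that missed the threshold also held matches, with 3 for Pgam1, 2 for Gapdh and 2 in each of the overlapping Eno1 windows. The longer palindrome CACGTG, which contains ACGTG and CACGT, was in no member window and in 6.02% of all windows. A match describes letters only.

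Ratios within a sample do not depend on library scaling. Pgk1 was 2.01 and 2.43 times Pgam1 in the WT samples and 1.21 and 1.44 times Pgam1 in the promoter KO samples. The ratio of Pgk1 to Eno1 was 0.695 and 0.772 in WT and 0.372 and 0.501 in promoter KO. Both ratios were lower in both promoter KO samples. They describe the fall of Pgk1 on another scale and are given as values only, since Pgk1 was singled out for that fall.

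**Figure D3:**
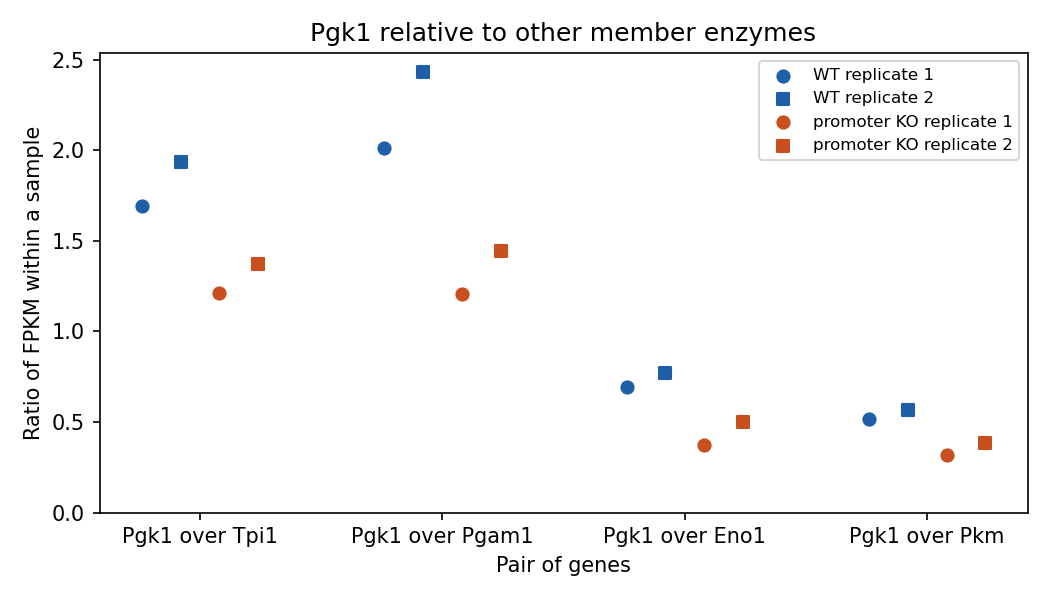
FPKM of Pgk1 divided by that of Tpi1, Pgam1, Eno1 or Pkm in the same sample, WT in blue and promoter KO in orange. For each of the 4 pairs both promoter KO samples lie below both WT samples, as for Pgk1 over Pkm, at 0.514 and 0.565 in WT and 0.320 and 0.382 in promoter KO.

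The 5 tested genes with a mean of at least 10 FPKM whose centred log2 values lay nearest to those of Pgk1 over the 4 samples were Tmco6, Ndrg2, Papss1, Nenf and Ttyh3, at Euclidean distances of 0.0209 to 0.0836. Tmco6 reached 18.5 and 20.3 FPKM in WT against 9.11 and 11.2 FPKM in promoter KO. With 4 samples, likeness of pattern rests on few values.

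The phosphoglycerate mutases move the phosphate group of phosphoglycerate. Pgam1 gave 798 and 736 FPKM for WT, compared with 695 and 700 FPKM for promoter KO. The groups did not overlap, but the log2 fold change of -0.14 (SE 0.075) did not pass the test (adjusted p = 0.270, limma). It was -0.08 without WT replicate 1 and -0.23 under quantile normalization. Pgam2, the muscle form, measured 1.13 and 1.33 FPKM in WT, against 1.64 and 2.08 FPKM in promoter KO, which corresponds to an estimated 17.9 to 26.9 fragments a sample. The highest of these, in promoter KO replicate 2, would be 13.4 at the lower depth that the wider search gave with 200 bases. Its log2 fold change of 0.36 (SE 0.16) did not pass either (adjusted p = 0.1995, limma). Pgam1 made up 99.8% of the summed mutase FPKM in WT and 99.7% in promoter KO on average.

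The enolases convert phosphoglycerate to phosphoenolpyruvate. Eno1, the widely expressed form, reached 2311 and 2319 FPKM in WT against 2260 and 2018 FPKM in promoter KO. Its log2 fold change of -0.12 did not pass the test (adjusted p = 0.377, limma), and it was 0.04 under quantile normalization, -0.03 without promoter KO replicate 2 and -0.20 without promoter KO replicate 1. Eno1b, a protein-coding gene on chromosome 18 with 99.5% identity to Eno1 over 1736 bases, gave 1078 and 1088 FPKM for WT, compared with 1073 and 955 FPKM for promoter KO. Its share of the sum of Eno1 and Eno1b lay between 31.8% and 32.2% in the 4 samples, and how reads were split between the 2 genes is uncertain. Eno2 measured 3.86 and 5.36 FPKM in WT, against 3.15 and 3.64 FPKM in promoter KO (adjusted p = 0.246, limma), with a log2 fold change of -0.34 that was -0.15 without WT replicate 2 and -0.54 without WT replicate 1. Eno3 reached 14.5 and 14.9 FPKM in WT against 13.2 and 16.5 FPKM in promoter KO, with the genotypes overlapping (adjusted p = 0.975, limma). Eno1 accounted for 99.2% of the summed FPKM of the 3 enolases in WT and 99.1% in promoter KO on average, and this share overlapped between genotypes.

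Pkm, whose transcripts are spliced into forms that the gene rows do not separate, gave 3125 and 3165 FPKM for WT, compared with 2628 and 2648 FPKM for promoter KO. Both promoter KO samples were below both WT samples, and replicates differed by little. The log2 fold change was -0.25 (SE 0.070), with an adjusted p of 0.0827 in limma, which missed the threshold. Under quantile normalization it was -0.09 (adjusted p = 0.309, limma). Pkm made up over 99.9% of the sum of Pkm and Pklr, the liver and red cell pyruvate kinase, in each sample.

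Of 19 other glycolysis genes 12 could be tested, with a median log2 fold change of -0.15. At an adjusted p under 0.05 in limma, 4 fell in promoter KO, against 1.89% of all tested genes. In the same test 1 was called higher, against 1.68% of all tested genes. Pfkl, a phosphofructokinase, fell with a log2 fold change of -0.71 (SE 0.11; adjusted p = 0.0391, limma). The aldolases Aldoa and Aldoc, which split the sugar just before the Tpi1 step, fell with log2 fold changes of -0.66 and -2.26. Ldha, which reduces pyruvate to lactate, measured 3200 and 3118 FPKM in WT, against 1931 and 2006 FPKM in promoter KO. This fall was -0.68 on the log2 scale (SE 0.072; adjusted p = 0.0244, limma). The 1 called higher, Hkdc1, a hexokinase domain protein, had 0.245 and 0.0413 FPKM for WT and 1.44 and 2.12 FPKM for promoter KO. It passed the filter only through the promoter KO samples, so a tested Hkdc1 had to differ, and its call gives no support to a rise. All 5 calls were lost without the intensity trend, without the filter, or without WT replicate 1, WT replicate 2 or promoter KO replicate 1.

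**Figure D4:**
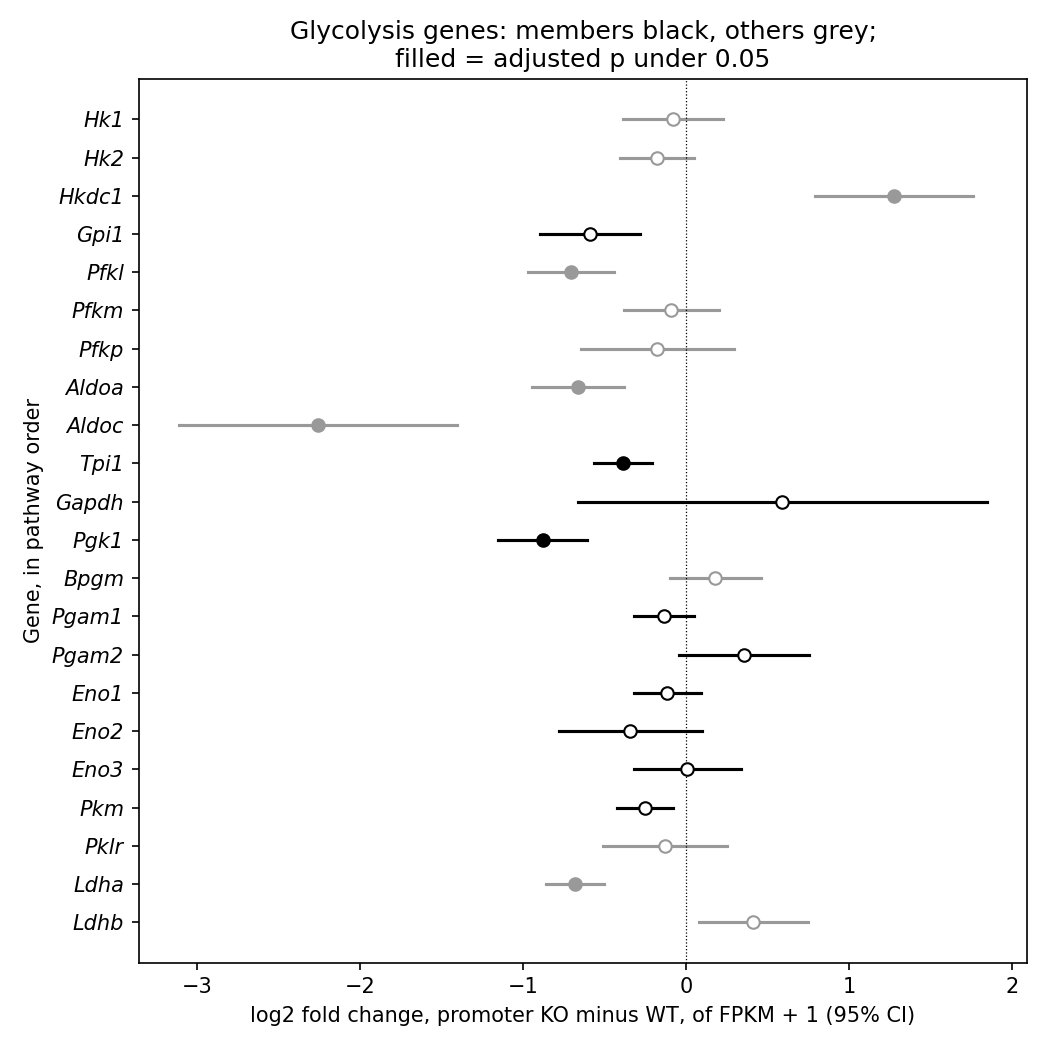
Log2 fold change of FPKM + 1, promoter KO minus WT, with 95% confidence intervals, for the 22 tested glycolysis genes in pathway order, members in black and others in grey, filled where the adjusted p was under 0.05. Pgk1 (-0.88) and Tpi1 (-0.39) are the filled members, and the interval of Gapdh is the widest among the members.

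Markers of mesendoderm moved with genotype. All 10 mesendoderm markers had both promoter KO samples below both WT samples, as did 32.4% of tested genes. Of the 10, 6 passed the test as lower, against 1.89% of tested genes. These were Mixl1, Gsc, Mesp1, Lhx1, Evx1 and Gata6. All 6 calls were lost in limma without a filter, where 0 genes were called lower. The list summed to 803 and 1041 FPKM in WT and to 159 and 330 FPKM in promoter KO, none of its genes was at 0 in every sample, and its most abundant gene, T, reached 306 and 448 FPKM in WT against 50.5 and 127 FPKM in promoter KO (adjusted p = 0.0509, limma). Of 7 visceral endoderm markers 6 could be tested and 4 were called higher, against 1.68% of all tested genes. These were Ttr, Amn, Cubn and Dab2. Cubn passed the filter only through the promoter KO samples, so its call gives no support to a rise. All 4 calls were lost in limma without a filter, where 0 genes were called higher. The list summed to 12.1 and 6.20 FPKM in WT and to 42.0 and 52.7 FPKM in promoter KO, with Dab2 the most abundant. None of 7 naive pluripotency markers passed in limma. At an unadjusted p under 0.05 in limma, 1 was lower and 3 were higher, as were 15.6% and 15% of all tested genes. That list summed to 188 and 216 FPKM for WT, compared with 277 and 207 FPKM for promoter KO, with Nanog the most abundant. In bulk samples fewer cells of a type and less RNA per cell cannot be told apart, and the part of cell composition in the enzyme values was not tested.

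For Eno2, 8 neuron markers summed to 67.2 and 76.8 FPKM in WT and to 66.9 and 78.8 FPKM in promoter KO. Stmn2 was the most abundant. Of 5 neuron markers tested, Tubb3 was the 1 that passed, as higher, against 1.68% of all tested genes. This call was lost in limma without a filter. For Eno3 and Pgam2, 7 of 10 striated muscle markers did not reach the level for testing, and the list summed to 7.30 and 12.8 FPKM in WT and to 7.62 and 9.09 FPKM in promoter KO, with Acta1 the most abundant.

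Gapdh and Pgk1 are often used as reference genes. Of 14 common reference genes 13 could be tested, and the 1 that passed was Pgk1 itself. The list had a median log2 fold change of 0.02, and its most abundant gene, Ppia, gave 3175 and 2603 FPKM for WT, compared with 3473 and 3549 FPKM for promoter KO.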

How the data were processed

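RNA-seq of day 3 EBs was used, with 2 WT and 2 promoter KO samples grouped by their labels. The deposited values were FPKM per gene symbol, made by the authors. The submitters' processing notes name HISAT2 2.1.0, Cufflinks and Cuffnorm with mm10, whereas the methods of the study name TopHat, Cufflinks and Cuffdiff, so which aligner made the values is uncertain. How reads that match several genes were assigned is not given in the sources used here.

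Genes that reached 1 FPKM in 2 or more samples were fitted with limma 3.58.1 in R 4.3.3 on log2(FPKM + 1), with genotype only, eBayes with an intensity trend and Benjamini-Hochberg adjustment over all 11941 tested genes. The fit was tested on simulated data. Isozyme shares and ratios within a sample are given as values, since the smallest p that an exact permutation test of 2 against 2 samples allows is 0.333. Copies were searched with BLAST 2.17.0 among GENCODE M21 transcripts. Depth was estimated from the FPKM that 1 fragment is worth, assuming fragments of 200 bases; the search limits were narrowed after a wider search had been seen, and simulated depths were tried within the narrowed limits only. Promoter windows came from RefSeq (GRCm38.p6).

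Named genes were the 10 members, and of each list every gene that passed and the gene with the highest mean; the 5 genes nearest in pattern to the member with the smallest adjusted p; and the highest copy of a member. The members and lists were chosen with earlier results of these data known. Alternatives covered the pseudocount, filters, trend, robust fitting, centring, quantile normalization, a replicate block, each sample left out, the fold and p thresholds of the study's volcano plot, copies and chromosome medians.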

Additional observations from a re-analysis of the deposited data

How the results depend on the processing

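The 2 members called lower became 1 with a pseudocount of 0.1, a mean filter of 5 FPKM or median centring, 0 without a filter, without the trend or under the volcano thresholds, and 0 to 1 with a sample left out. In the limma fits without a filter and without the trend, 4 and 5 members had an unadjusted p under 0.05, as did 22.3% and 29% of all genes tested in those fits. The log2 fold change of Tpi1 kept its direction but missed the threshold with a pseudocount of 0.1, without a filter, with the mean filter and without the trend (-0.39 in each), with median centring (-0.36), and with any sample left out (-0.43 to -0.35); its adjusted p ranged from 0.0303 to 0.235. Pgk1 missed it without a filter or the trend (-0.88 in both) and without WT replicate 1, WT replicate 2 or promoter KO replicate 1; with any sample left out it ranged from -1.01 to -0.75, and its adjusted p over all fitted alternatives from 0.0075 to 0.183. Less its chromosome median, Tpi1 was at -0.52. As the log2 ratio of mean FPKM, Pgam2 was at 0.60, higher in promoter KO as in the fit. Gapdh was at -0.19 without WT replicate 1 and ranged up to 1.37 with samples left out. Under quantile normalization Eno1 was at 0.0372, Pkm at -0.09 and Pgam1 at -0.23. With samples left out, Pgam1 ranged from -0.19 to -0.08, Eno1 from -0.20 to -0.03 and Eno2 from -0.54 to -0.15. Eno3 was at -0.00867 without WT replicate 1 and at -0.14 without promoter KO replicate 2, with a highest value of 0.16 with samples left out. The 4 other glycolysis genes called lower became 3 with the mean filter, robust fitting, median centring or quantile normalization. They became 1 under the volcano thresholds and 0 without a filter or the trend, and calls among them were lost with any sample left out. The 1 called higher was lost without a filter, with the mean filter, without the trend and with any sample left out. Over all genes, the 226 lower and 201 higher calls became 0 and 0 without a filter (4059 genes at an unadjusted p under 0.05), 108 and 95 with the mean filter, and 27 and 55 without the trend (3466 genes at that p); median centring gave 126 lower and 157 higher, 44.5% of calls lower against 52.9%. With a sample left out they ranged from 0 to 248 lower and from 0 to 238 higher. The replicate block gave 667 lower and 535 higher calls and Gpi1 passed (-0.59, adjusted p = 0.0146); across 11941 genes the deviations of same-numbered samples correlated at 0.0348, and the samples share only a number. The cause of these changes was not tested. With samples left out, the difference between genotypes in the Eno1 share of the enolases (-0.0269 percentage points) ranged from -0.162 to 0.108, that in the Pkm share from -0.00279 to 0.0026, and that in the Pgam1 share from -0.136 to -0.0742. Few fragments limit Pgam2.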

Other observations

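At the intermediates of the member enzymes, 14 genes of branches and reverse steps were listed and 11 could be tested. None passed an adjusted p of 0.05 in limma. At an unadjusted p under 0.05 in limma, 2 were lower and 2 higher, near the 15.6% and 15% of all tested genes. The most abundant, Phgdh, which opens serine synthesis from phosphoglycerate, was at 123 and 110 FPKM in WT and at 86.9 and 108 FPKM in promoter KO. None of 6 splicing factors known to act on Pkm passed either. In the same test 1 was higher at an unadjusted p under 0.05, near the 15% of all tested genes. The most abundant, Hnrnpa1, was at 557 and 656 FPKM in WT and at 534 and 549 FPKM in promoter KO. All 5 erythroid markers, listed for Bpgm, were below the level for testing in each sample, with Klf1 the most abundant.

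Hprt, a reference gene singled out after its values were seen, was between 0.321 and 0.536 FPKM in the 4 samples. The methods name E14Tg2a.IV among the stem cell lines used, and E14Tg2a cells are known to lack a working Hprt gene. The sample titles do not name the line, and a link between the line and the Hprt values was not tested.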
